A study of Mus musculus with 12 samples.

Results

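Gldn, Prtn3, Pls1, Dnah1, Tes, Cdhr2 and Ano10 are 7 of the 19350 genes that could be tested in these mouse livers, out of 57180 in the deposited tables. They were chosen on their measured values, because each was strongly higher in every KO liver than in the Het livers of the same sex, from a low starting level. The difference between KO and Het is therefore described for these genes and not tested. Near-silent is used here for a gene under 1 TPM (estimated counts per transcript length, scaled to an equal sum across libraries) in every Het liver. This held for 6 of the 7 genes, whereas Ano10 averaged 2.46 ± 0.426 TPM (SD, n = 6) in the Het livers and was not near-silent.

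The 7 genes have unlike roles, several of them known from tissues other than the liver. Gldn encodes gliomedin, a secreted olfactomedin-domain protein by which Schwann cells gather sodium channels at the nodes of Ranvier. Prtn3 encodes proteinase 3, a serine protease of the primary granules of neutrophils. Pls1 encodes plastin 1, which bundles actin in the microvilli of the intestinal brush border, and Cdhr2 encodes a protocadherin that links the tips of neighbouring microvilli. Dnah1 encodes a heavy chain of the inner dynein arms, the motors of cilia and sperm tails. Tes encodes testin, a LIM-domain protein of focal adhesions and the actin cytoskeleton. Ano10 encodes anoctamin 10, a multi-pass membrane protein of a family of ion channels and lipid scramblases.

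Each of the 12 livers came from a different mouse, and 3 mice of each sex carried the label KO and 3 the label Het. Bulk RNA was sequenced, and single livers are called here by genotype, sex and mouse number. Mice of all 4 groups lacked Csa (Ercc8 in the annotation) and had been given AAV9-CSA, a vector with a human CSA gene under a ubiquitous promoter, into the brain ventricles as newborns, so no group was untreated. The KO mice are the CX mice, killed at their humane endpoint, and the Het mice are healthy littermates killed at the same age, so that genotype and terminal illness cannot be told apart. The ages of the individual mice are not given in the sources used here. The study describes CX mice as Csa-/- Xpa-/-, whereas its RNA-seq methods write Csa-/- Xpa+/+ for KO and Csa-/- Xpa+/- for Het, and the groups are therefore called by their label names.

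Xpa, the gene by which the groups differ, was at 3.10 to 6.34 CPM (counts scaled to library size and composition) in the 6 Het livers and at 0.992 to 1.83 CPM in the 6 KO livers, with no overlap. Mouse Ercc8 was counted in every liver, at 5.10 to 8.68 CPM in Het and 14.8 to 34.0 CPM in KO. The libraries held 30044812 to 43634073 counts assigned to genes. Hepatocyte markers dominated in all groups, with summed levels of 65056 to 83172 CPM in Het and 77552 to 135009 CPM in KO.

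The sequence before the start of transcription is shown for the 4 genes whose 250 upstream bases hold no annotated exon, to give the sequence context of genes that were chosen for a shared rise. Positions are those of GRCm39 and the starts those of the canonical GENCODE M39 transcripts. Each sequence runs 5′ to 3′ on the strand of its gene and ends at the base before the start. Capitals mark matches to the motifs listed after the sequences.
Gldn, chr9:54193367-54193616, plus strand: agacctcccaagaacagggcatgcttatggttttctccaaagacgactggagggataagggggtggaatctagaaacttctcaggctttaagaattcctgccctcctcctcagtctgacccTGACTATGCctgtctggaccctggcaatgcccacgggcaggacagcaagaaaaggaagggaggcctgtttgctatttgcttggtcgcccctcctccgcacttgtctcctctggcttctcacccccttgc
Prtn3, chr10:79715198-79715447, plus strand: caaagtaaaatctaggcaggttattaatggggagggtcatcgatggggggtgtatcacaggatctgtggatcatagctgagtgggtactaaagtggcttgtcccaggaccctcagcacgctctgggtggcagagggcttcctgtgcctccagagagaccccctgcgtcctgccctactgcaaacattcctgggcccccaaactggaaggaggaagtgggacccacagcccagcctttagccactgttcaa
Cdhr2, chr13:54849021-54849270, plus strand: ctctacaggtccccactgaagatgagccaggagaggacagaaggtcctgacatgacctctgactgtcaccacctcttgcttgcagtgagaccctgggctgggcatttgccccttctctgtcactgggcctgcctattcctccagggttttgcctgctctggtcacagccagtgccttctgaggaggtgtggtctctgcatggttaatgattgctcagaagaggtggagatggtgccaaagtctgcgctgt
Ano10, chr9:122123498-122123747, minus strand: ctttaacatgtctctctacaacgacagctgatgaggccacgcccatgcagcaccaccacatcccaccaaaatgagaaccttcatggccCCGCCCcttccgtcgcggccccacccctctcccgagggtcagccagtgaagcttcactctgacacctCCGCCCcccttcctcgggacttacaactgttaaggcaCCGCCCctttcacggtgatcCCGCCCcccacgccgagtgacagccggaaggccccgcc

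Across the 7 promoters the count of CpG dinucleotides ran from 1 in Cdhr2, 3 in Prtn3 and 4 in Gldn through 7 in Dnah1 and 9 in Pls1 to 16 in Ano10 and 19 in Tes, beside a median of 8 over 21757 protein-coding promoters of the same length. The 2 genes with the highest Het levels, Ano10 and Tes, were thus those with the most CpGs and the highest GC content (63.2% and 64.8%, against a median of 53.2%). However, all 250 bases taken for Tes lie in annotated exons, as do 109 of those for Dnah1 and 25 of those for Pls1. Of 8 motifs searched on both strands, the GC box GGGCGG was found in the promoters of Tes and Ano10 and in 36.3% of all promoters. The CCAAT box CCAAT was found in Tes (36.5% of all promoters), and the antioxidant response element core TGACNNNGC in Gldn, 129 to 121 bases before the start (9.70% of all promoters). The TATA box TATAAA (11.9%), the E-box CACGTG (6.26%), the AP-1 site TGANTCA (6.18%), the STAT site TTCNNNGAA (7.70%) and a C/EBP-like site TTNNGNAA (36.9%) had no match in any of the 7. No motif was shared by more than 2 of the 7 genes.

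The largest differences were those of Gldn and Prtn3, which were almost absent from the Het livers. Gldn (ENSMUSG00000046167, chr9:54193617-54249070, 10 exons in the canonical transcript) was counted 0, 1 and 1 times in the Het females and 1, 1 and 4 times in the Het males. It was counted 370, 124 and 160 times in the KO females and 352, 145 and 281 times in the KO males. Every KO liver was thus far above every Het liver, and this held for all 7 genes, beside 4.72% of the tested genes (913 of 19350) whose 6 KO livers all lay above the 6 Het livers. Because the genes were chosen for this pattern, nothing is read from the 7 of 7.

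In CPM the Gldn level averaged 0.0157 ± 0.0137 (SD, n = 3) in Het females and 6.53 ± 4.28 in KO females, and 0.0646 ± 0.0548 in Het males and 6.78 ± 2.22 in KO males. The fitted log2 fold change was 6.50 (SE 0.537) in females and 5.82 (SE 0.528) in males. Since the Het females held 2 counts in all, the fitted value depends on the prior count, and the ratio of summed counts per library size was 388 (95% counting interval 107 to 3214). In males the ratio was 106 (48.3 to 289) on 6 Het counts. Leaving out KO_F_108 lowered the female ratio to 247, and leaving out Het_M_137, which had 4 of the 6 counts, raised the male ratio to 209. These intervals cover counting error only. In bulk RNA, a change in the number of cells of a type and a change in RNA per cell cannot be told apart.

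Prtn3 (ENSMUSG00000057729, chr10:79710310-79719008, 5 exons) was counted 0, 0 and 4 times in Het females, 2, 0 and 1 times in Het males, 97, 85 and 178 times in KO females and 296, 207 and 375 times in KO males. No sample of either genotype reached the range of the other. Its mean level was 3.47 ± 1.14 CPM in KO females and 7.87 ± 2.63 CPM in KO males (SD, n = 3), and the lowest KO male, at 6.03 CPM, was above the highest KO female, at 4.77 CPM. The fitted log2 fold change was 5.32 (SE 0.535) in females and 6.48 (SE 0.566) in males, and the ratio of summed counts was 107 (41.4 to 394) on 4 Het counts and 238 (81.3 to 1158) on 3 Het counts. All 4 female Het counts were in Het_F_126, so that without it no ratio can be formed, and the fitted log2 fold change was then 5.94. In males the ratio was 482 without Het_M_119 and 159 without Het_M_125. On the TPM scale Prtn3, with a short transcript of 1025 bases, stood higher than Gldn, with 4811 bases. It was at 2.75 to 12.5 TPM in the KO livers, whereas Gldn was at 0.564 to 2.06 TPM.

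Of the brush border genes, Pls1 (ENSMUSG00000049493, chr9:95634544-95727364, 16 exons) had a measurable Het level. It was counted 41, 52 and 51 times in Het females, 18, 20 and 32 times in Het males, 320, 638 and 691 times in KO females and 1127, 735 and 740 times in KO males. The KO female with the lowest count, KO_F_108, was still far above all Het livers. Mean levels were 1.19 ± 0.117 and 16.1 ± 5.36 CPM in Het and KO females and 0.758 ± 0.231 and 22.8 ± 2.35 CPM in Het and KO males (SD, n = 3). The log2 fold change was 3.69 (SE 0.273) in females and 4.81 (SE 0.292) in males.

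Cdhr2 (ENSMUSG00000034918, chr13:54849271-54884475, 32 exons) was counted 1, 7 and 7 times in Het females, 3, 0 and 2 times in Het males, 151, 128 and 102 times in KO females and 195, 94 and 124 times in KO males. The lowest KO count was 94, and no Het count passed 7. Mean levels in Het and KO were 0.119 ± 0.0801 and 3.79 ± 0.983 CPM in females and 0.0547 ± 0.0507 and 3.58 ± 0.838 CPM in males (SD, n = 3). The log2 fold change was 4.43 (SE 0.433) in females and 5.04 (SE 0.480) in males. Even so, Cdhr2 stayed under 1 TPM in each KO liver (0.478 to 0.950 TPM). In males its ratio of summed counts was 67.3 (28.6 to 208) on 5 Het counts with 113 without Het_M_119 and 44.8 without Het_M_125.

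Dnah1 (ENSMUSG00000019027, chr14:30982332-31045915, 78 exons) was counted 7, 10 and 9 times in Het females, 5, 3 and 11 times in Het males, 361, 211 and 212 times in KO females and 336, 183 and 257 times in KO males. All KO livers were above all Het livers, and KO_F_108 was the highest. Mean levels in Het and KO were 0.216 ± 0.0342 and 7.80 ± 2.96 CPM in females and 0.205 ± 0.131 and 6.80 ± 1.27 CPM in males (SD, n = 3). The log2 fold change was 4.85 (SE 0.370) in females and 4.71 (SE 0.381) in males. The male ratio of summed counts was 33.3 (21.2 to 55.6) and 52.1 without Het_M_137. Because its transcript is 12934 bases long, these counts amounted to only 0.291 to 0.711 TPM in the KO livers, the lowest KO level of the 7 genes.

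Tes (ENSMUSG00000029552, chr6:17065144-17105827, 7 exons) was counted 53, 49 and 71 times in Het females, 26, 54 and 66 times in Het males, 529, 568 and 437 times in KO females and 578, 419 and 480 times in KO males. The highest Het count was 71 and the lowest KO count 419, and the Het males spread most, from 0.867 to 2.11 CPM. Mean levels were 1.43 ± 0.153 and 15.2 ± 3.10 CPM in Het and KO females and 1.58 ± 0.640 and 13.1 ± 0.858 CPM in Het and KO males (SD, n = 3). Its log2 fold change was 3.37 (SE 0.274) in females and 3.00 (SE 0.273) in males.

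Ano10 (ENSMUSG00000037949, chr9:122004940-122124498, 13 exons) was counted 317, 334 and 446 times in Het females, 218, 252 and 245 times in Het males, 809, 803 and 780 times in KO females and 1006, 654 and 753 times in KO males. It was the gene with the smallest difference and the highest Het level of the 7. Mean levels were 9.03 ± 0.563 and 23.6 ± 2.34 CPM in Het and KO females and 7.77 ± 0.465 and 21.2 ± 1.93 CPM in Het and KO males (SD, n = 3). The log2 fold change was 1.38 (SE 0.127) in females and 1.44 (SE 0.127) in males, a ratio of summed counts of 2.59 (2.41 to 2.78) and 2.75 (2.53 to 2.99).

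**Figure D1:**
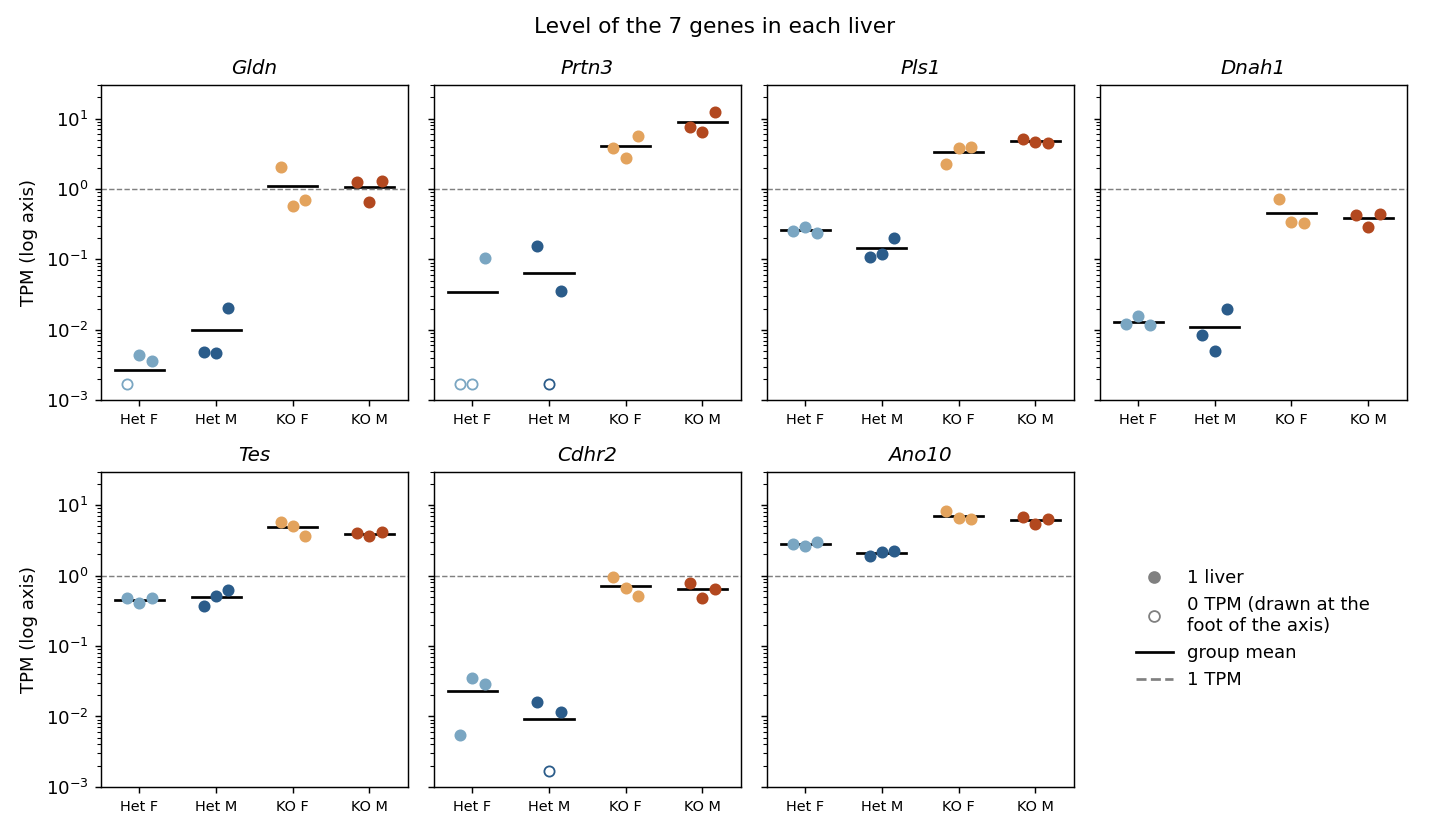
TPM of each gene in each liver (log axis), with 1 point per liver, open points at the foot of the axis for livers at 0 TPM, black lines for the mean of the 3 livers of a group and a dashed line at 1 TPM. In every panel the KO points lie above the Het points, and only Ano10 has its Het points above 1 TPM.

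Ordered by mean level in the KO livers, the genes ran from Ano10 (6.65 ± 0.920 TPM) and Prtn3 (6.46 ± 3.45) through Tes (4.40 ± 0.842) and Pls1 (4.06 ± 1.01) to Gldn (1.09 ± 0.571), Cdhr2 (0.674 ± 0.178) and Dnah1 (0.423 ± 0.152; SD, n = 6). The liver ranges of neighbours in this order overlapped except for Pls1, at 2.25 TPM or more, and Gldn, at 2.06 TPM or less. In the Het livers the order was Ano10 (2.46 TPM), Tes (0.481), Pls1 (0.202), Prtn3 (0.0490), Cdhr2 (0.0161), Dnah1 (0.0120) and Gldn (0.00627). There the ranges of Ano10, Tes and Pls1 were apart from each other, whereas those of the other neighbours overlapped. Prtn3 and Gldn each stood 2 places higher in KO than in Het. The KO means of the 7 genes lay between the 28.4th percentile of all tested genes (Dnah1) and the 71.9th (Ano10). Only 4 of the 7, Prtn3, Pls1, Tes and Ano10, were at 1 TPM or more in every KO liver.

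The median of the 7 log2 fold changes was 4.43 in females and 4.81 in males, beside medians of 0.01 and 0.02 over all tested genes. On log2(TPM + 1), which compresses genes of such low level, the medians of the 7 were 1.08 and 1.21. Counted from the largest rise over both sexes among all tested genes, Gldn stood in place 5, Prtn3 6, Dnah1 14, Cdhr2 15, Pls1 21, Tes 69 and Ano10 611. Of 6822 tested genes that were near-silent in the Het livers, 379 had each KO liver above each Het liver, and 32 of those were at 1 TPM or more in all KO livers. The 5 genes outside the 7 with the largest rise among the 379 were Cacna1b, the pore subunit of the N-type calcium channel (log2 fold change 5.13), Lrtm2 (4.88), the chitinase-like Chil3 (4.30), the calcium channel subunit Cacna2d4 (4.28) and the acyltransferase Mogat2 (4.28). Lrtm2 lies inside Cacna2d4 on the opposite strand. All 5 lay within the range of fold changes of the chosen genes.

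**Figure D2:**
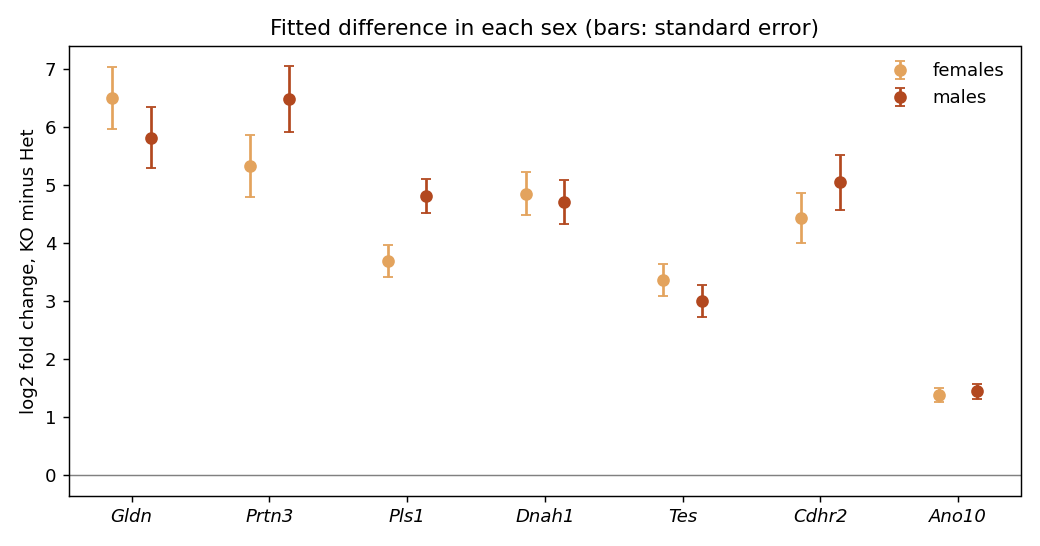
Fitted log2 fold change of KO over Het (vertical axis) for each gene in females and males, with approximate standard errors as bars. The values run from 1.38 for Ano10 to 6.50 for Gldn, and the bars of the sexes are apart for Pls1 and Prtn3.

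The choice of the genes did not use the difference between the sexes, which was tested in edgeR by quasi-likelihood, with p-values adjusted by Benjamini and Hochberg's method over all tested genes. None of the 7 passed for males against females over both genotypes, where 1.02% of all tested genes did. The log2 differences ran from -0.38 (Cdhr2) to 0.59 (Prtn3), with adjusted p from 0.379 to 0.949 and 0 of 7 at an unadjusted p under 0.05. DESeq2 and limma also called 0 of 7. Gldn, Prtn3 and Cdhr2 had at most 7 counts in a Het liver, so that a sex difference among the Het livers was not detectable for them at this depth. Within the KO livers Prtn3 was higher in all 3 males than in all 3 females, by 1.16 on the log2 scale (SE 0.388, edgeR unadjusted p = 0.00805), but its adjusted p was 0.252. Within the Het livers Pls1 was lower in males by edgeR (log2 difference -0.62, SE 0.277), with an unadjusted p of 0.0460 and an adjusted p of 0.443.

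Pls1 was also the gene of the 7 with the smallest p for a rise that differed between the sexes. All 3 Het males were below all 3 Het females in CPM, and all 3 KO males were above all 3 KO females. The interaction, the rise in males minus that in females, was 1.12 on the log2 scale (SE 0.367) with an unadjusted p of 0.0100 and an adjusted p of 0.434 by edgeR. It was called for none of the 7, beside 0.0465% of all tested genes (9 genes), and DESeq2 and limma called none of the 7 either. For the other 6 genes the interaction ran from -0.68 (Gldn, SE 0.521) to 1.16 (Prtn3, SE 1.48). These standard errors were derived from the fold change and the F statistic, and are rough where Het counts are few. For Gldn, Prtn3 and Cdhr2, with at most 7 counts in a Het liver, a large difference between the sexes could be missed. For Ano10, the gene with the most Het counts, the interaction was 0.06 (SE 0.174).

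The 6 KO livers did not rank alike from gene to gene. KO_F_108 was the highest KO liver for Gldn (11.5 CPM), Dnah1 (11.2), Cdhr2 (4.68) and Ano10 (25.1), yet it was the lowest for Pls1, at 9.91 CPM beside 18.5 to 25.5 CPM in the other 5 livers. KO_F_112 was the highest for Tes (17.6 CPM) and the lowest for Gldn (3.84) and Prtn3 (2.63). KO_M_136 was the highest for Prtn3 (10.9 CPM), and KO_M_118 for Pls1 (25.5 CPM). The lowest level of Tes (11.7 CPM) and of Cdhr2 (2.73 CPM) was in KO_F_123, and that of Dnah1 (5.33) and Ano10 (19.1) in KO_M_122. No single KO liver carried the rise of the 7 genes, but the choice of the genes required a rise in every KO liver.

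**Figure D3:**
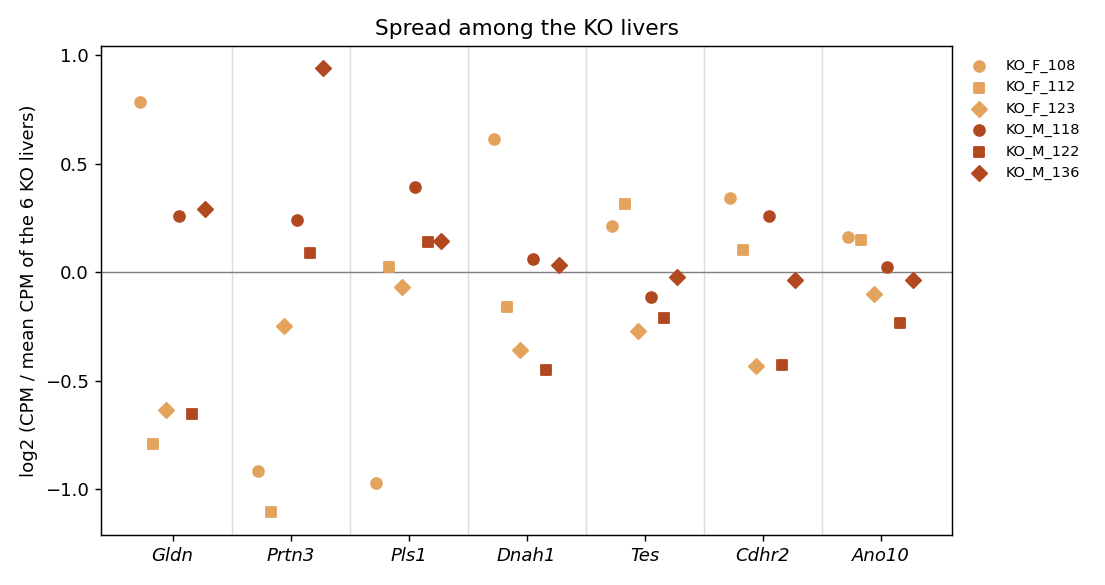
Level of each gene in each KO liver relative to the mean of the 6 KO livers, on a log2 scale, with females in light and males in dark colour and a marker shape for each mouse. KO_F_108 stands at the top for Gldn, Dnah1 and Cdhr2 and at the bottom for Pls1, and the points of Ano10 lie closest together.

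To find the genes whose pattern was most like that of each of the 7, log2 CPM over the 12 livers was centred on the Het mean and the root mean square difference was taken over all tested genes. Gldn and Prtn3 were each other's nearest gene (0.75 log2 units), followed by Cacna1b for Gldn (0.89) and Lrtm2 for Prtn3 (1.05). Dnah1 and Cdhr2 were likewise each other's nearest (0.45), and Cacna2d4 came next for both (0.50 and 0.63). Pls1 was nearest to the transcript Rptoros (0.39) and to Lpl, the lipoprotein lipase (0.46). Tes was nearest to Mapk13, a p38 kinase (0.27), and Folh1, a glutamate carboxypeptidase (0.37). Ano10 was nearest to Aprt, an enzyme of adenine salvage (0.18), and Hrg, the histidine-rich glycoprotein of plasma (0.21). Because all 7 rise between the genotypes, these distances include the size of that rise.

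The relatives of the 7 genes were listed by family and tested between the genotypes, which the choice of the 7 did not use. Of 75 tested relatives 14 were called higher in KO (18.7%) and 13 lower (17.3%), beside 12.2% and 10.2% of all tested genes, and their median log2 fold change was 0.10. The other 48 were not called.

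Around Cdhr2 and Pls1, 16 microvillus and brush border genes were tested, of which 3 were higher and 5 lower. Cdhr5, the protocadherin that pairs with Cdhr2, was abundant in both genotypes. It was at 42.5 to 59.2 CPM in Het and 62.0 to 73.9 CPM in KO, a log2 fold change of 0.38 (SE 0.106, edgeR adjusted p = 0.0242). Myo7b, the myosin of the same tip-link complex, went from 5 to 69 counts over the 6 livers of a genotype (log2 fold change 2.23, adjusted p = 0.00185). Anks4b, a scaffold of that complex, was lower by contrast (log2 fold change -1.38, adjusted p = 0.0215), as were Pdzk1 (-0.97) and Myo6 (-0.56). Cobl, an actin nucleator, was higher (0.62, adjusted p = 0.00556). Of the other plastins, Pls3 was lower (log2 fold change -0.35, adjusted p = 0.0238), and Lcp1, the plastin of blood cells, did not pass (-0.21, adjusted p = 0.246). Neither of the other plastins was called higher.

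For Dnah1, 15 axonemal and motile cilia genes were tested. Cfap44, a protein of the sperm tail and cilia, was counted 10 times in all Het livers together and 340 times in the KO livers (log2 fold change 3.98, SE 0.531, edgeR adjusted p = 2.93e-04). Ccdc40 (1.32) and the dynein heavy chain Dnah17 (1.13) were also higher, and Foxj1, the transcription factor that drives motile cilia formation, was lower (-1.31, adjusted p = 0.0257). The other tested dynein heavy chains, Dnah2, Dnah5, Dnah7b, Dnah8 and Dnah11, with 92 to 219 Het counts and 97 to 257 KO counts each, did not pass, with log2 fold changes from -0.36 to 0.32. Too low to test but with more summed counts in KO were Dnah3 (ratio 5.62, 1.62 to 29.9) and Dnah12 (3.12, 1.29 to 8.64). So were Rsph1 (6.74, 2.62 to 22.1) and Cfap43 (5.45, 1.19 to 50.6). These intervals cover counting error only, and for each of these genes the lowest KO liver lay within the Het range. That liver was at 0 CPM for Dnah3, Dnah12 and Cfap43. For Rsph1 it was at 0.0268 CPM, beside Het livers at up to 0.0667 CPM. For the untested Dnah6, Dnah7a, Dnah7c, Dnah9, Dnah10, Dnah14, Dnali1, Hydin, Spag6l, Tekt1 and Dnaaf1, the intervals included no difference.

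Among the relatives of Tes, 25 partners and LIM-domain adhesion proteins were tested, with 3 higher and 4 lower. Ajuba (log2 fold change 1.40, edgeR adjusted p = 7.40e-04), Pdlim1 (0.83) and Prickle2 (0.76) were higher. Prickle1 (-0.89), Vcl, the vinculin of focal adhesions (-0.64), Tln2 (-0.55) and Pdlim5 (-0.46) were lower. Of 9 other anoctamins 4 could be tested. Ano2, a calcium-activated chloride channel, went from 2 to 99 counts, a ratio of 49.1 (13.2 to 411), with an adjusted p of 0.00169 by edgeR. The lowest KO liver of Ano2 lay within the Het range. Ano6, the phospholipid scramblase, rose less (log2 fold change 0.62, adjusted p = 0.00638), and Ano1 (-0.44) and Ano8 (0.31) did not pass. Ano5, too low to test, was lower in summed counts, with 33 in Het and 9 in KO, a ratio of 0.270 (0.114 to 0.578). Its livers overlapped, at 0.0976 to 0.281 CPM in Het and up to 0.107 CPM in KO. The untested Ano3, Ano4, Ano7 and Ano9 had at most 22 counts in a genotype, with no clear difference.

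For Gldn, 14 genes of the node of Ranvier and of the olfactomedin family were tested. Nfasc, the adhesion protein that gliomedin binds at the node, went from 29 to 197 counts (log2 fold change 2.37, SE 0.417, edgeR adjusted p = 0.00265), and the sodium channel Scn8a from 59 to 195 counts (1.54, adjusted p = 0.00104). Adgrl3 was higher (1.10) and Adgrl2 (-0.55) and Olfml2a (-1.10) were lower. Nrcam, the other binding partner, had 12 counts in Het and 15 in KO and was too low to test.

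The granule companions of Prtn3 had few or no counts in either genotype. Over the 6 Het and the 6 KO livers together, Prtn3 had 7 and 1238 counts, Elane (neutrophil elastase, of the same granules) 8 and 16, Mpo (myeloperoxidase) 3 and 4, and Ctsg (cathepsin G) 0 and 1. Ms4a3, Prss57 and Igll1 had no count in any liver, and Fcnb, Cebpe and Gfi1 had 0, 3 and 15 counts in Het and 2, 3 and 13 in KO. Of the 10 listed genes only Serpinb1a, an inhibitor of these proteases that other cells also make, could be tested, and it was lower (log2 fold change -2.23, edgeR adjusted p = 0.0174).

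**Figure D4:**
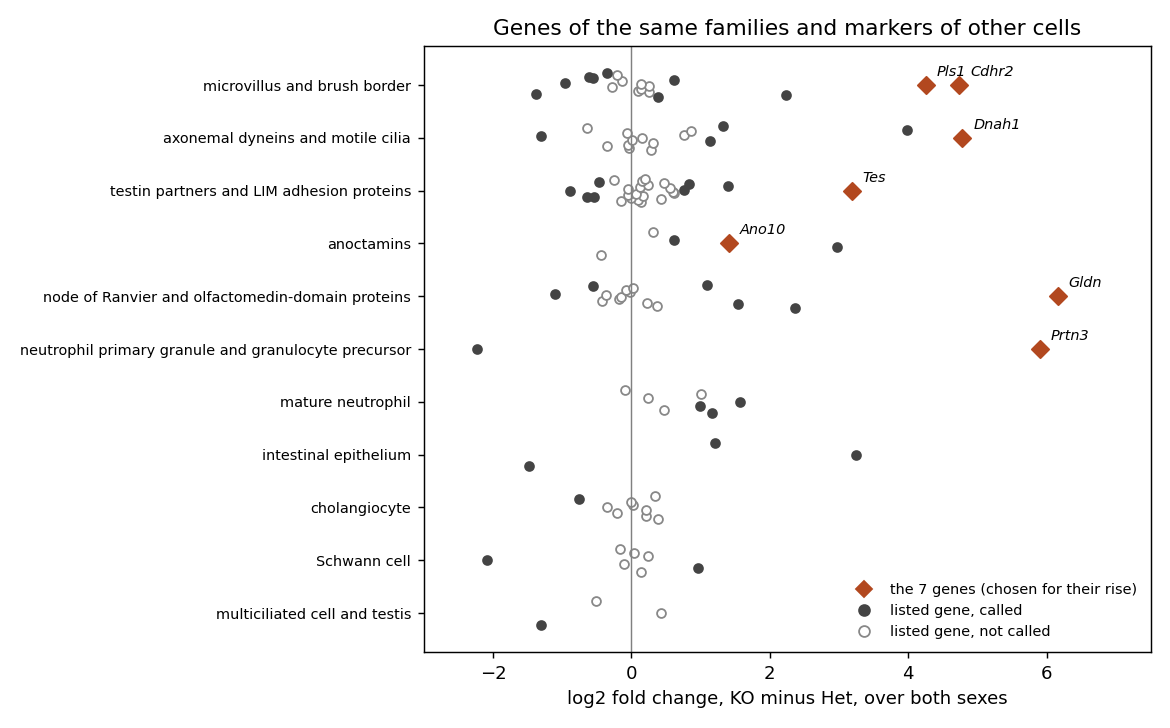
Log2 fold change of KO over Het over both sexes (horizontal axis) for tested genes of the 6 families and of 5 lists of markers of other cells, with filled points for genes called at an adjusted p under 0.05, open points for those not called and diamonds for the 7 chosen genes. The diamonds lie to the right of the other points of their row except in the anoctamin row, where Ano2 at 2.97 is to the right of Ano10.

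Markers of cells that express the 7 genes in other settings were read in the same libraries. Of 12 mature neutrophil markers 7 were tested and 3 were higher, namely Mmp9 (log2 fold change 1.57), S100a8 (1.17) and Mmp8 (18 and 44 counts). Their list summed to 1.76 to 7.88 CPM in Het and 3.97 to 8.74 CPM in KO, ranges that overlap, whereas Prtn3 alone was at 2.63 to 10.9 CPM in KO and at most 0.0864 CPM in Het. Of the 5 neutrophil markers too low to test, Ly6g had 1 count in Het and 2 in KO, Camp 4 and 3, Ltf 8 and 21, Ngp 5 and 18 and Stfa2l1 3 and 14. The last 3 had more summed counts in KO, with ratios of 2.60 (1.11 to 6.79), 3.57 (1.28 to 12.3) and 4.63 (1.29 to 25.1). These intervals cover counting error only, and the livers of the genotypes overlapped. Ltf was at 0 to 0.0845 CPM in Het and 0 to 0.233 CPM in KO. Ngp was at 0 to 0.0432 and 0 to 0.279 CPM, and Stfa2l1 at 0 to 0.0510 and 0 to 0.124 CPM.

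The defining intestinal markers Sis and Cdx1 were at 0 counts in all livers. Alpi and Cdx2 had at most 1 count in a genotype, Lct had 2 counts in Het and 9 in KO, and Krt20 had 0 and 10. Of the 3 intestinal markers tested, the protease Mep1a had no count in Het and 103 in KO (edgeR adjusted p = 0.00111), and the mucin Muc2 was higher (log2 fold change 1.20). Fabp2 was lower (-1.48) and made up nearly all of the summed list, with 28.6 to 45.2 of 28.7 to 45.4 CPM in Het and at most 24.2 of 25.0 CPM in KO. Of 9 cholangiocyte markers tested, which stand for the bile duct cells that also carry microvilli and cilia, none was higher by edgeR and 1, Pkhd1, was lower (-0.76). Their summed level was 64.8 to 110 CPM in Het and 30.4 to 84.6 CPM in KO.

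Of 7 Schwann cell markers tested 1 was higher and 1, Ngfr, was lower (log2 fold change -2.09), and Mbp, with 372 and 330 counts, did not pass. The list summed to 8.34 to 13.4 CPM in Het and 5.33 to 9.70 CPM in KO. A large part of this sum was Ngfr, at 3.55 to 7.10 CPM in Het and 0.217 to 3.03 CPM in KO. The other 5 tested markers were not called. Of the markers of multiciliated cells and testis, 3 were tested, 1 of them lower (Foxj1) and none higher. Mcidas, Prm1 and Tnp1 had no count in any liver, and the germ cell gene Ddx4, too low to test, had 6 counts in Het and 29 in KO, a ratio of 4.79 (1.95 to 14.1). The livers overlapped for Ddx4, at up to 0.0864 CPM in Het and 0.0804 to 0.310 CPM in KO.

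Among the resident cells, 4 of 8 Kupffer cell markers were higher, namely Marco (log2 fold change 2.98), Vsig4 (0.87), Cd5l (0.79) and C1qa (0.74), and the list summed to 133 to 351 CPM in Het and 182 to 553 CPM in KO. Lower were 3 of 9 hepatocyte markers (Serpina1c -1.19, Ttr -0.81, Cyp2e1 -0.77), Lrat (-1.89) and Reln (-1.75) as 2 of 8 stellate cell and fibroblast markers (248 to 452 CPM in Het and up to 272 CPM in KO) and Kdr (-0.99) and Clec4g (-0.83) as 2 of 6 sinusoidal endothelial markers (161 to 304 CPM in Het and up to 223 CPM in KO). Of 8 blood progenitor and erythroid markers Tfrc was higher (1.06) and Alas2 (-1.41) and Kit (-0.52) were lower. Over all 68 tested markers 11 were higher (16.2%) and 13 lower (19.1%), beside 12.2% and 10.2% of all tested genes. The count of 11 was 6 without Het_F_111, Het_M_125, Het_M_137 or KO_M_118, and 7 without Het_F_126 or KO_M_122. The part of any of these cells in the rise of the 7 genes was not tested.

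The chromosomal neighbours of the 7 genes were tested as well, taking the nearest 2 tested genes on each side. Of these 28 genes 8 were called higher (28.6%) and 3 lower (10.7%), beside 12.2% and 10.2% of all tested genes. Their log2 fold changes ran from -1.53 to 1.73, and the median was 0.16. Next to Ano10, the transcript Gm26797, which ends 437 bases upstream of the outermost annotated start of Ano10 on the same strand, rose by 1.73 on the log2 scale (SE 0.249, edgeR adjusted p = 8.57e-04), whereas Snrk (-0.67) and Gm47121 (-0.94) on the other side were lower. Gm4876, on the opposite strand over Tes, was higher (log2 fold change 1.23, edgeR adjusted p = 0.0450), with 20 counts in Het and 69 in KO. Gm43924, 1252 kb from Tes, was also higher (1.07), while Cav2, 175 kb from Tes, was lower (-0.71). Plppr3, which overlaps the outer annotated end of Prtn3 on the opposite strand, upstream of the canonical start, was higher (1.10, adjusted p = 0.0414) with 19 and 42 counts, and Med16 was higher too (0.67).

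Dmxl2 beside Gldn (log2 fold change 0.78), Atr, a kinase of the DNA damage response, beside Pls1 (0.58) and Rnf44 beside Cdhr2 (0.27) made up the rest of the calls. Bap1, which overlaps Dnah1 on the opposite strand and had 6189 counts in Het and 6756 in KO, did not pass (0.10). The kit keeps the strand of the reads, but overlapping genes can still share reads. The count of 8 was 4 without Het_M_119, Het_M_137 or KO_M_118, and 5 without Het_F_111, Het_F_115 or KO_F_108. The count of 3 was 5 without KO_F_123.

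**Figure D5:**
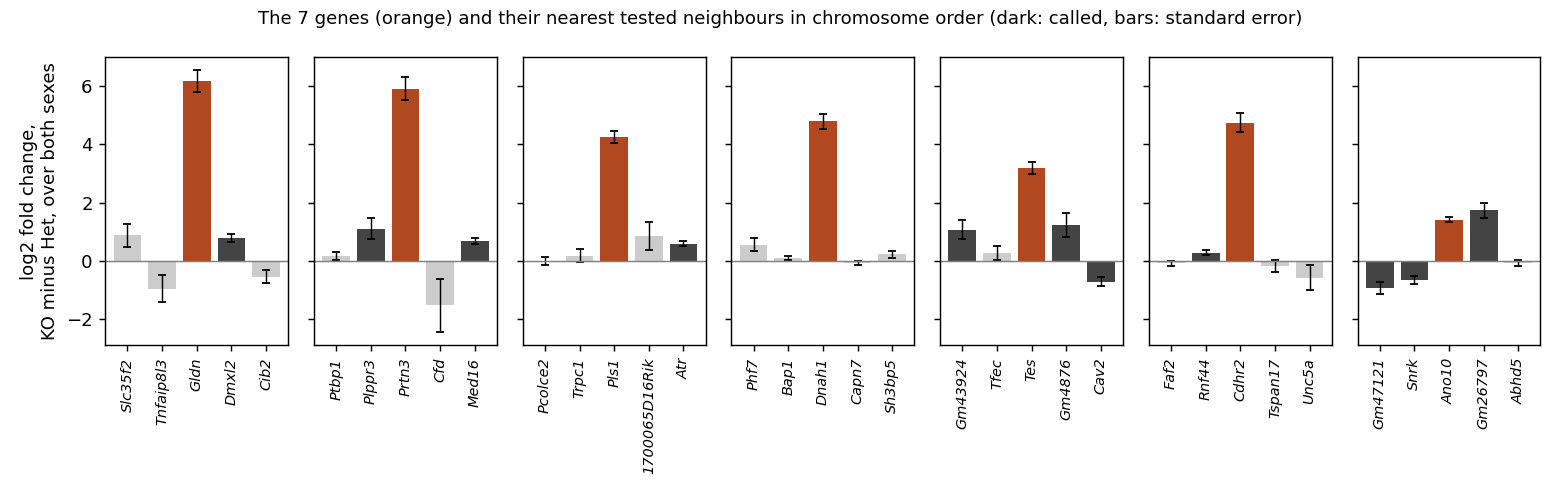
Log2 fold change of KO over Het over both sexes (vertical axis) for each of the 7 genes, in orange, and the nearest 2 tested genes on each side in chromosome order, dark where called and light where not, with standard errors. Each of the 7 stands above its neighbours except Ano10, beside which Gm26797 reaches 1.73.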

How the data were processed

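RNA from 12 mouse livers was depleted of ribosomal RNA and made into stranded libraries. The authors aligned the reads with STAR 2.7.9a to GRCm39 and quantified genes with Salmon 1.10.1. They deposited an estimated count for each gene (12% of values are not whole), length-scaled estimated counts and TPM, which keeps no depth. A further table of scaled counts was not used here.

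The estimated counts were rounded and fitted with edgeR 4.0.16 in R 4.3.3 (TMM, a mean for each group, quasi-likelihood test, robust, prior count 2), on genes that reached 5 reads (scaled to the median library) in 3 or more livers. Genes with an adjusted p under 0.05 were called. The standard errors given with edgeR are the absolute log2 fold change over the square root of the quasi-likelihood F statistic. They are therefore approximate, most of all for genes with few counts. The libraries held 30044812 to 43634073 counts, and CPM was computed from the counts and the TMM-scaled library sizes. The script was tested on simulated data. Ratios of summed counts carry exact 95% Poisson intervals, which cover counting error and not the spread between mice. Annotation and promoters come from GENCODE M39 on GRCm39.

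The 7 genes, the family and marker lists and the naming rule were chosen with earlier results of these data known. The rule named the 7 genes, called genes among their nearest 2 tested neighbours on each side, the 2 nearest expression profiles of each, up to 4 called genes of smallest p in each list, their close relatives and the 5 other near-silent genes with the largest rise. Other named markers were chosen after their values were seen. Some listed markers are not reported here one by one. The labels number the mice but do not say whether litters were shared. The p-values set each difference against the spread between mice of a group and take the mice as independent. They could be off where litters were shared. Alternatives were relative log expression scaling, other filters, length-scaled counts, DESeq2 1.42.0, limma 3.58.1 on log2(TPM + 1) and log2(TPM + 0.1), each liver left out and, chosen after seeing the data, edgeR's older quasi-likelihood method.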

Additional observations from a re-analysis of the deposited data

How the results depend on the processing

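The counts of the 7 genes called for sex and for the interaction stayed at 0 under all alternatives run, but with at least 10 reads in every liver only 3 of the 7 were tested. Within the Het livers Gldn, Prtn3 and Cdhr2 had too few counts for the test to bear on them. The median log2 fold change of the 7 genes in females was 4.95 with DESeq2, 4.93 as the log2 ratio of mean TPM, 3.13 on log2(TPM + 0.1) and 1.08 on log2(TPM + 1), beside 4.43. In males it was 2.77 on log2(TPM + 0.1) and 1.21 on log2(TPM + 1), beside 4.81. The pseudocounts exceed the Het level of most of these genes, which shrinks the fold by construction.

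Relatives called higher numbered 14, but 6 with at least 10 reads required in every liver, where 51 were tested, and 8 on log2(TPM + 1). Cell type markers called higher numbered 11, but 5 with the same filter and 7 on either log2 TPM scale. Neighbours called higher numbered 8, but 5 with no filter on low counts, 4 with at least 10 reads in every liver, where 19 were tested, and 5 on log2(TPM + 1). Leaving out 1 liver at a time gave 10 to 14 relatives higher and 9 to 13 lower, 6 to 11 markers higher and 11 to 16 lower, and 4 to 8 neighbours higher and 3 to 5 lower. The medians of the 7 genes then ran from 4.12 to 4.65 in females and from 4.67 to 5.11 in males. The causes of these changes were not tested.

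Counts of 0 to 7 in a Het liver, as for Gldn, Prtn3 and Cdhr2, limit the folds of these genes to wide intervals. No paired analysis was possible because the mouse numbers are unique and no group shares them with another.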
